A study of Mus musculus with 5 samples.

Results

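The glutathione S-transferases described here are 9 mouse genes: the alpha-class genes Gsta3 and Gsta4, the mu-class genes Gstm1, Gstm2 and Gstm5, the theta-class genes Gstt1 and Gstt2, the omega-class gene Gsto1 and the membrane-bound Mgst1. They were taken as every probe set whose platform annotation gives exactly 1 gene symbol and whose symbol is one of these 9. That gave 14 of the 12422 probe sets, with at least 1 for each gene. Each probe set pools several short DNA probes aimed at the same transcript. The arrays carry total RNA of tissue labelled as murine lung, from A-J mice given saline solution (2 arrays, title numbers 6 and 48) or IL13 (3 arrays, title numbers 6, 18 and 48) into the trachea. Interleukin-13 (IL-13) is a signalling protein of allergic inflammation, and the series is about the goblet cells that secrete airway mucus. The numbers in the array titles could be time points, but no unit is given, so each array is named by treatment and title number, and values run in the order saline 6 and 48, then IL-13 6, 18 and 48. No combination was repeated, and the labels do not say how many animals an array stands for, so every p-value measures only the spread between these arrays, which may be technical.

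Glutathione S-transferases join the tripeptide glutathione to reactive, mostly fat-soluble compounds, which makes them easier to export. Cytosolic members act as dimers and are sorted into classes by sequence, while Mgst1 belongs to an unrelated family of membrane proteins. In the lung they are best known from the airway lining, where club cells carry much of the capacity to handle inhaled chemicals. Many of their genes are targets of Nfe2l2, the transcription factor that answers oxidative stress through antioxidant response elements. Mu-class genes are close in sequence and lie together on chromosome 3, where Gstm2 and Gstm1 are next to each other among protein-coding genes. The theta genes Gstt1 and Gstt2 share chromosome 10, with Gstt4 between them.

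Of the 9 genes, Gsto1 was the only one whose 3 IL-13 arrays all read above both saline arrays, by 1.25-fold to 3.09-fold in the pairs of equal title number. Gstt1 was the only one whose IL-13 arrays all read below both. The other genes overlapped between treatments. Over all tested probe sets, 14.8% had their IL-13 arrays above both saline arrays and 11% below, beside 1 of 13 tested member probe sets each. Gsta4, and Gstm2 and Gstm5 on their probe sets with the plain ending _at, read clearly lower on saline 6 than on the other 4 arrays. No member passed the limma test (0 of 13 probe sets tested, at an adjusted p under 0.05). Over all probe sets 4 of 7811 passed, or 0.0512% (1 higher, 0.0128%, and 3 lower, 0.0384%). At an unadjusted p under 0.05 there was 1 member, Gsto1, where the share over all probe sets was 9.26%.

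The saline 6 array differed from the others before any gene of interest is considered. Pearson's r of log2 intensity over the tested probe sets (which are no independent replicates) was 0.913 to 0.923 between saline 6 and the other arrays, and reached 0.956 between other arrays. The 7 salivary gland markers summed to 101019 on saline 6 and to 574 to 889 on the other 4 arrays. The heart muscle markers (5 genes) summed to 29261 on saline 6, 10897 on saline 48 and 11759.9 to 22279.8 with IL-13, and the fat markers (4 genes) to 26214, 15945 and 11257 to 12312. Much of the heart sum came from Actc1, at 9837 to 16252 over the 5 arrays. Myh6 read 3986 on saline 6 and 1391 on IL-13 18, and Myl7 read 7547 and 3323 there. On the remaining arrays Myh6 read 100 to 208 and Myl7 130 to 225. The label of lung was borne out unevenly. No list covered skeletal muscle or squamous epithelium. Picked after their values were seen, the muscle genes Acta1 and Mb read 11569 to 26556 and 10263 to 11302.5 over the 5 arrays. The squamous keratin genes Krt4 and Krt13 read 15198 to 20694 and 8144 to 17700. Club cell markers (5 genes) summed to 58409 and 54341 with saline and 57929 to 60758 with IL-13, led by Scgb1a1, the main club cell secretory protein, and by Aldh1a1 and Cyp2f2. Alveolar type II markers (4 genes) summed to 3219 on saline 6, 568 on saline 48, 22197 on IL-13 18, and 785 and 664 on the other IL-13 arrays. Sftpc, the surfactant protein gene that defines these cells, read 194 to 300.5 on saline 48, IL-13 6 and IL-13 48. Alveolar type I markers (3 genes) were also highest on IL-13 18, at 7429.6, against 2689.7 to 3739 elsewhere. The sums of the remaining lists spread less, apart from T cells. Sums of ciliated cell markers (4 genes) ranged from 1499.8 to 1901 and of macrophage markers (5 genes) from 13309 to 17306. Those of smooth muscle and fibroblast markers (7 genes) ranged from 33942 to 43955 and of endothelial markers (4 genes) from 3302 to 4609. Some single genes of these lists spread more than the sums. The macrophage marker Marco read 425 on saline 6 and 17.2 to 96.3 elsewhere. The ciliated cell marker Kif9 read 33.7 on saline 6 and 174 to 291 elsewhere. Pecam1, an endothelial marker, read 252 and 160 on saline 6 and 48 and 475 to 702 with IL-13. Thymus and T cell markers (5 genes) summed to 6858 and 8272 with saline and 1714 to 4779.5 with IL-13, and liver markers (4 genes) were near background at 183 to 381. In such bulk RNA fewer cells of a type and less RNA per cell cannot be told apart.

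Gsto1 encodes the omega-class enzyme, which carries a cysteine in its active site and reduces dehydroascorbate and methylated arsenic compounds rather than conjugating most classic substrates. Its probe set 97819_at read 5651 on saline 6 and 6611 on saline 48. After IL-13 its intensity was 17485 at title number 6, 11373 at 18 and 8294 at 48. Every IL-13 array lay above both saline arrays, and the IL-13 arrays themselves differed 2.11-fold between title numbers 6 and 48. Over all tested probe sets 14.8% had their IL-13 arrays above both saline arrays, and 2.77% also had the order 6, 18, 48 from highest to lowest, so 1 of 13 members in the first class is no more than the background. The log2 difference of IL-13 over saline was 0.95 (SE 0.32, n = 3 and 2 arrays, limma adjusted p = 0.486), with a 95% interval, not adjusted for the number of probe sets, of 0.18 to 1.72. Leaving out 1 array gave 0.67 to 1.21. Against saline 48 in place of saline 6, IL-13 6 was still 2.64-fold higher, and IL-13 18 was 2.01-fold above saline 6 and 1.72-fold above saline 48. The sums of the salivary gland, heart, fat and macrophage markers did not fall in that order over the IL-13 arrays. Among the 12 marker lists the sums of 2 did. The smooth muscle and fibroblast markers summed to 43955, 38575 and 38289 on IL-13 6, 18 and 48 and to 35729 and 33942 on saline 6 and 48. Taken singly, only Acta2 and Myh11 of these markers fell in that order. The club cell markers summed to 60758, 58318 and 57929 after IL-13, where saline 6, at 58409, lay within that range. One club cell marker, Aldh1a7, an aldehyde dehydrogenase picked here after its values were seen, ran like Gsto1, at 839.5 and 705 on the saline pair against 3226, 2368 and 1424 after IL-13. Of the other club cell markers, Scgb1a1 alone also fell over IL-13 6, 18 and 48 (31024, 23917 and 22692). Scgb1a1 was the brightest probe set on both saline arrays (29141 and 22024). The highest intensity on IL-13 6, 18 and 48 fell in that order as well (32284, 29077 and 23415). Aldh1a1 (16039, 19339 and 20230) and Cyp2f2 (9162, 11320 and 12587) rose instead, and Cyp2b10 was highest on IL-13 18. On its _f_at probe set, the heart-list gene Actc1 also fell in the order of Gsto1. It read 10239 and 9837 on the saline pair against 16252, 13048 and 10527 after IL-13. The endothelial marker Pecam1 had that order too, with 252 and 160 against 702, 482 and 475. Both were picked after their values were seen, and the other genes of their lists did not have this order. The part of all these markers in the Gsto1 values was not tested.

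**Figure D1:**
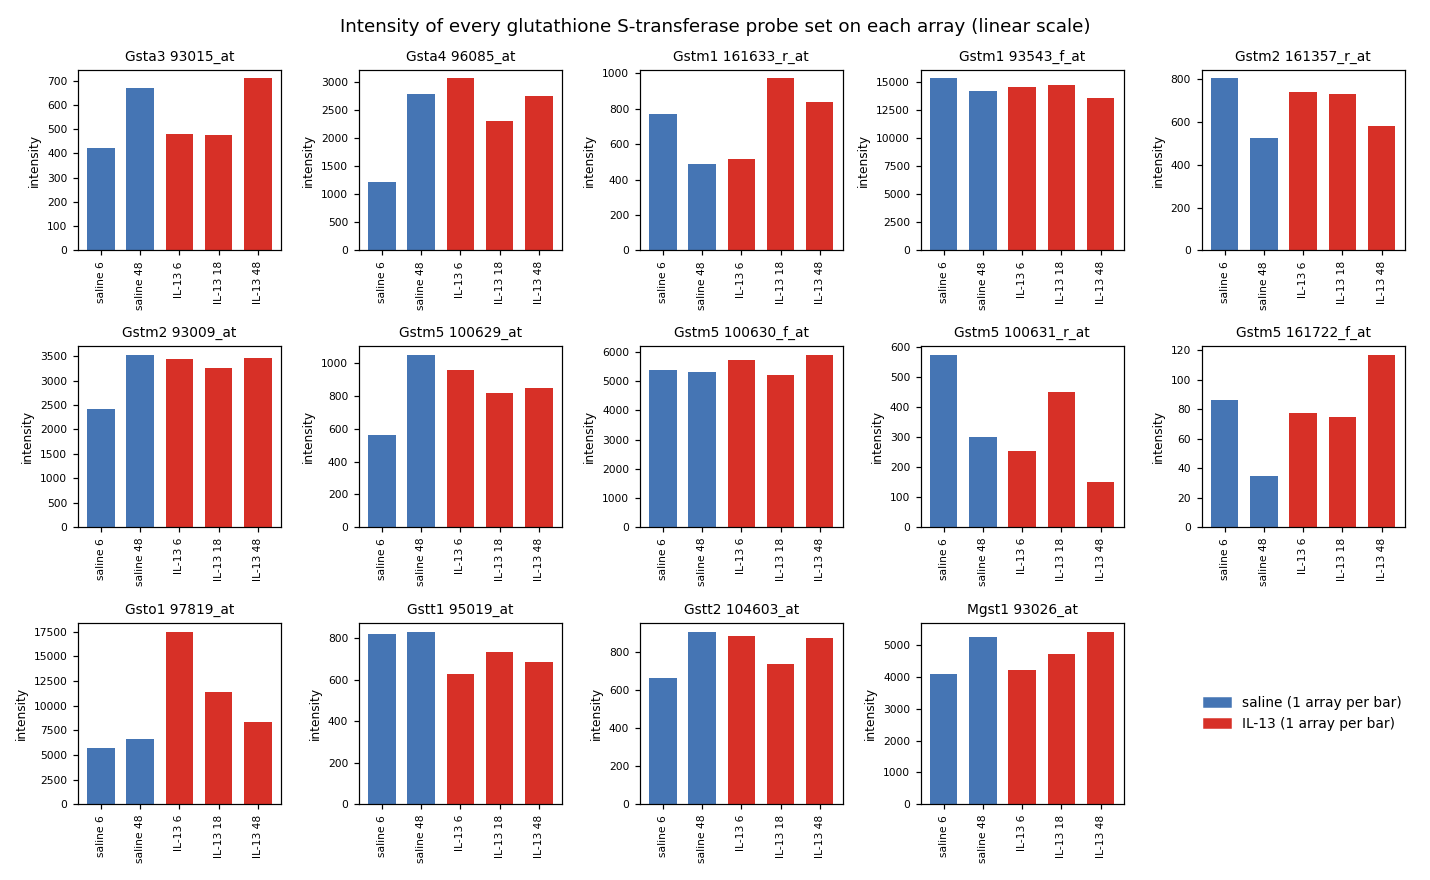
Intensity (linear scale, each axis starting at 0) of the 14 glutathione S-transferase probe sets on the 5 arrays, with saline in blue and IL-13 in red. Each bar is 1 array with no replicate, so there are no error bars. Gsto1 is highest on IL-13 6 (17485) and lowest on saline 6 (5651), whereas Gsta4, Gstm2 93009_at and Gstm5 100629_at are lowest on saline 6 and similar on the other 4 arrays.

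By a measure of likeness over the 5 arrays, the root mean square difference of mean-centred log2 intensities, the genes closest to Gsto1 were Sprr2g (0.077), the pseudogene Sprr2j-ps (0.134), Sprr2i (0.141), Lysmd2 (0.154) and Apobec2 (0.155). The Sprr2 genes encode small proline-rich proteins of the cornified envelope of squamous epithelium. Sprr2g read 1734 and 1821 with saline and 5256, 3325 and 2210 on IL-13 6, 18 and 48, the same order as Gsto1. All 3 Sprr2 probe sets end in _f_at, an ending for probes that match a whole gene family, so these are not 3 separate measurements. Gsto1 was chosen for this comparison after its values were seen, as the member with the largest difference without overlap.

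The promoter windows below, of 300 bases each, are given for Gsto1, which differed most, and for the mu-class genes Gstm2 and Gstm5, whose probe sets 93009_at and 100629_at read lowest on saline 6. They come from RefSeq (build GRCm38.p6), run 5′ to 3′ on the gene's strand from 250 bases before the gene start, and were matched by symbol. Capitals mark matches, on either strand, to the antioxidant response element TGACNNNGC, the AP-1 site TGACTCA or the STAT site, which is TTC and GAA with 4 bases of any kind between them.
Gsto1, chr19:47854723-47855022, plus strand: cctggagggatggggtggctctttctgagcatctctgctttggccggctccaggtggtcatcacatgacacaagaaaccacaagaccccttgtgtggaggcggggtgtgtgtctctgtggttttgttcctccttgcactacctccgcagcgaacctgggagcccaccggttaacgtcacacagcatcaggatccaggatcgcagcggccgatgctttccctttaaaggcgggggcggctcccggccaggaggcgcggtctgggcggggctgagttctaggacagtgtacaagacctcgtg
Gstm2, chr3:107986371-107986670, minus strand: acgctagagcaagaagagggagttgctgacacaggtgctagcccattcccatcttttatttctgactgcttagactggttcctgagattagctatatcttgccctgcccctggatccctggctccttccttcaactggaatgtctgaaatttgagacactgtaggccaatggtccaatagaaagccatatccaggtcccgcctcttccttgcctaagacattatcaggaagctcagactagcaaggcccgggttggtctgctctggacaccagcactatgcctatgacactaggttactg
Gstm5, chr3:107895604-107895903, plus strand: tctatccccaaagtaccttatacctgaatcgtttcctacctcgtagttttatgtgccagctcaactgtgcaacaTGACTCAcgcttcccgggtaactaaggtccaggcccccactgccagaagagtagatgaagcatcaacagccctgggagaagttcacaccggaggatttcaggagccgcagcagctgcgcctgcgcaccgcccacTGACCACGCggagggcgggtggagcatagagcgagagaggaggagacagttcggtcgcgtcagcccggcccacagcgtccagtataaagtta

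Of the 9 genes, 7 had a window in the table (9 windows in all, since Gstm1 and Mgst1 have 2 starts). Windows of Gsta3, Gstm5 and Mgst1 held the antioxidant response element, against 12.4% of all 32851 windows of that length. In Gstm5 its first base lay 42 bases before the start, in Mgst1 56 and in Gsta3 121. The AP-1 site was found in Gstm5 alone (5.2% of all windows) and did not overlap the antioxidant response element there. The STAT site was found in 1 window of Gstm1 (6.95% of all windows), 109 bases before the start. Neither Gsto1 nor Gstm2 held any of these letters in its window. These matches describe sequence only.

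Gsta4, the alpha-class enzyme that conjugates hydroxynonenal, a product of lipid peroxidation, showed the widest gap between the saline arrays among the probe sets with the plain ending _at. It read 1211 on saline 6 and 2784 on saline 48, and 3061, 2295 and 2751 on IL-13 6, 18 and 48. Only saline 6 was low, and saline 48 lay within the range of the IL-13 arrays. In the pair of title number 6 Gsta4 was 2.53-fold higher with IL-13, and in the pair of 48 it was 0.988 times the saline value. The log2 difference over all arrays was 0.55 (SE 0.36, limma adjusted p = 0.697), and it was -0.053 without saline 6 and 1.15 without saline 48. Gsta3, an alpha-class enzyme that in mice conjugates the activated form of aflatoxin, read 423 and 667 on the saline pair against 479, 477 and 709 after IL-13. Both arrays of title number 48 read above the other 3 for Gsta3. Its log2 difference was 0.04 (SE 0.28), with an interval of -0.64 to 0.72, which leaves room for a change in either direction.

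The mu-class genes Gstm2 and Gstm5, on their probe sets with the plain ending, were again lowest on saline 6. Gstm2, a mu-class enzyme of broad substrate range, read 2419.7 on saline 6 and 3521 on saline 48 with 93009_at. On IL-13 6, 18 and 48 it read 3446, 3261 and 3452, so the 4 arrays other than saline 6 lay within a narrow band. The log2 difference was 0.21 (SE 0.21, limma adjusted p = 0.795) and turned to -0.057 without saline 6. Gstm5, another mu-class enzyme, read 561 on saline 6, 1047 on saline 48 and then 955, 819 and 850.1 after IL-13 with 100629_at. Saline 48 was the highest of the 5 arrays, 1.87-fold above saline 6, so the saline arrays enclosed all IL-13 arrays. The difference was 0.19 (SE 0.28), and -0.26 without saline 6. The probe sets of the same genes with other endings, which mark probes that can match several related transcripts or that met looser design criteria, did not repeat this. Gstm2 161357_r_at read 803 and 523 on the saline pair against 740.5, 728 and 579.9 after IL-13, with saline 6 the highest array.

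Gstm5 100631_r_at had the widest range of any tested member. It read 572 on saline 6, 300.0 on saline 48, and 254, 448 and 149.9 on IL-13 6, 18 and 48. IL-13 was lower in both pairs, 2.25-fold at 6 and just over 2-fold at 48, but IL-13 18 lay above saline 48, and the log2 difference was -0.69 (SE 0.49, limma adjusted p = 0.721). It was -0.22 without saline 6, -0.30 without IL-13 48, -1.09 without IL-13 18 and -1.15 without saline 48. Its direction was opposite to that of Gstm5 100629_at. The genes with the most similar profile were Hp (0.15), Usp25 (0.24), Ebi3 (0.24), Eef1b2 (0.25) and Pstpip1 (0.25). Hp, the haemoglobin-binding acute phase protein, read 4907 and 2669.5 on the saline pair against 2589.8, 4329 and 1724 after IL-13. Gstm5 100630_f_at was almost flat, at 5397 and 5329 on the saline pair against 5738, 5205 and 5891 after IL-13. The fourth probe set, 161722_f_at, was dim and was not tested, with 86.2 and 35.1 on the saline pair against 77.3, 74.7 and 117 after IL-13. Saline 48 lay below the floor of 55.3 there, the 20th percentile of all intensities.

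Gstm1, a major mu-class enzyme of mouse tissues, had 1 flat probe set and 1 that varied. The flat one, whose ending marks probes that match a whole gene family, had the narrowest range of any member probe set. That of Gstm5 100630_f_at was nearly as narrow (1.132-fold). Gstm1 93543_f_at read 15315.5 and 14178 on the saline pair against 14538.5, 14678 and 13562 after IL-13, a span of 1.129-fold. The log2 difference was -0.05 (SE 0.16), with a 95% interval of -0.44 to 0.34. The other Gstm1 probe set, 161633_r_at, read 773 and 487 on the saline pair against 519, 972 and 839 after IL-13, a span of 1.995-fold. Its pairs differed in opposite directions, 1.49-fold lower with IL-13 at 6 and 1.72-fold higher at 48, and its log2 difference was 0.29 (SE 0.33).

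Theta-class enzymes act on small halogenated molecules and on peroxides. Gstt1 read 818.5 and 829 on saline 6 and 48, which lay within 1.01-fold of each other. It read 625, 735 and 683 on IL-13 6, 18 and 48, all below saline. The log2 difference was -0.28 (SE 0.17, limma adjusted p = 0.671), with a 95% interval of -0.68 to 0.12. The difference was -0.34 to -0.22 when 1 array was left out, so no single array set its direction. The IL-13 arrays lay below both saline arrays for 11% of all tested probe sets, and for 1 of 13 members. Gstt2 read 662 and 907 on the saline pair against 887, 736 and 875 after IL-13, with saline 6 lowest and saline 48 highest. Its log2 difference was 0.10 (SE 0.21), and -0.13 without saline 6.

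Mgst1, a transferase and peroxidase of the endoplasmic reticulum and the outer mitochondrial membrane, read 4091 and 5264 on the saline pair against 4237, 4731 and 5426 after IL-13. Within each treatment it was higher at 48 than at 6, by 1.29-fold with saline and 1.28-fold with IL-13. At equal title number the treatments were 1.04-fold and 1.03-fold apart. The log2 difference was 0.04 (SE 0.20), with an interval of -0.45 to 0.53.

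**Figure D2:**
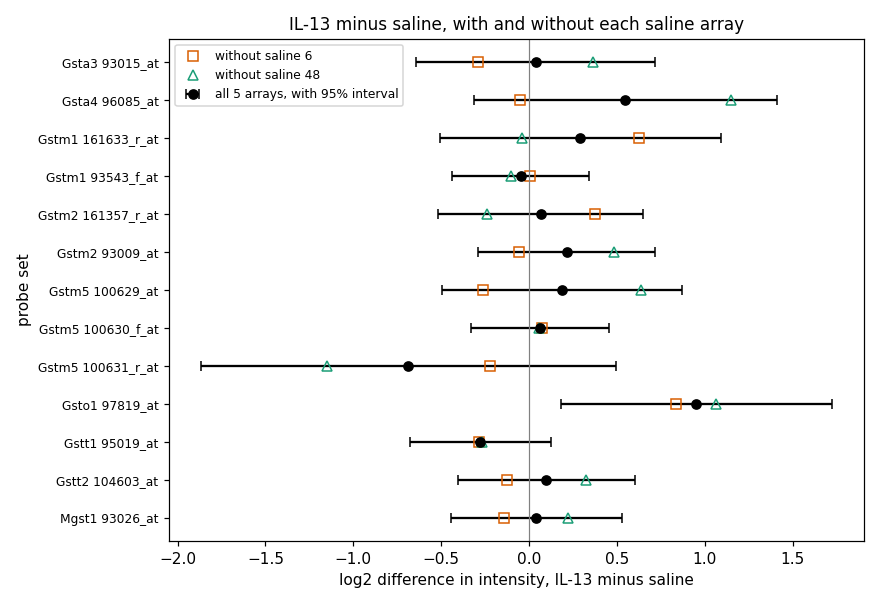
Log2 difference in intensity, IL-13 minus saline, for the 13 tested probe sets (vertical axis), as black points with the 95% interval of the limma fit to all 5 arrays. Orange squares leave out saline 6 and green triangles leave out saline 48. Gsto1 stays above 0 in all 3 fits (0.95, 0.84 and 1.06), while Gsta4 goes from 1.15 without saline 48 to -0.053 without saline 6.

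Over the 13 tested probe sets 10 had a higher mean with IL-13 and 3 a lower one, with a median log2 difference of 0.07. Over all 7811 the mean was higher for 4323 and lower for 3488, and the median was 0.04. Without saline 6 the members' count of higher means was 5 of 13 and their median -0.057. The matching count over all probe sets without saline 6 is not given here. Of the 8 members with the plain ending _at, Gsto1 alone kept a higher mean with IL-13 when saline 6 was left out. Saline 6 was the lowest of the 5 arrays for 7 of 13 members (32.1% over all tested probe sets), and for 7 of the 8 with the plain ending (33%). It was the highest for 3 of 13 (21.4%), all of them with other endings, and saline 48 exceeded it for 8 of 13 (55.5%). The counts were not tested against these shares, and the split by ending was not among the planned comparisons. Gsta3, Gsta4, Gstm2, Gstm5, Gsto1, Gstt2 and Mgst1 were the 7, and Gstt1 was the exception. The 4 other arrays exceeded saline 6 by a geometric mean of 2.24-fold for Gsta4, 1.81-fold for Gsto1, 1.63-fold for Gstm5, 1.41-fold for Gstm2, 1.35-fold for Gsta3, 1.28-fold for Gstt2 and 1.2-fold for Mgst1. The salivary gland, heart and fat markers that were highest on saline 6 moved against these genes, while the club cell markers did not separate saline 6 (lowest of the 5 arrays for 0 of 5 genes). Saline 6 was lowest for 3 of 3 tested alveolar type I markers, 2 of 4 ciliated cell markers and 3 of 7 smooth muscle and fibroblast markers. Their part in the result was not tested.

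**Figure D3:**
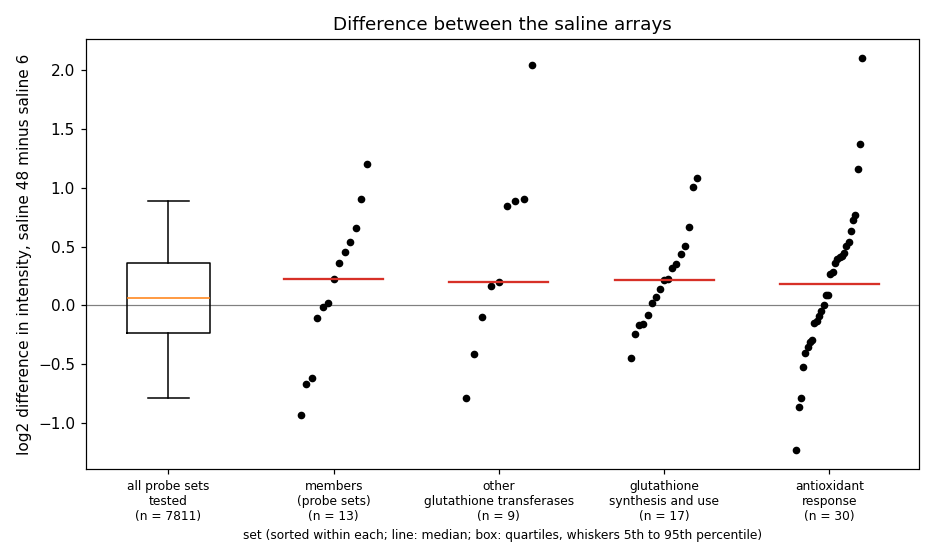
Log2 difference in intensity between the saline arrays, saline 48 minus saline 6. The box shows all 7811 tested probe sets (quartiles, whiskers from the 5th to the 95th percentile), and points show members and genes of the glutathione lists, sorted within each set, with the median as a red line. The members' median is 0.23 and that of all probe sets 0.06, and members reach from -0.93 (Gstm5 100631_r_at) to 1.2 (Gsta4).

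Between single arrays of equal title number, 3 of 13 members were at least 2-fold apart at 6, with 7.86% over all tested probe sets. Higher with IL-13 were Gsto1 (3.09-fold) and Gsta4 (2.53-fold), where the share over all was 4.06%. Lower was Gstm5 100631_r_at (2.25-fold), where it was 3.8%. Against saline 6 alone, 7 of 13 members had all IL-13 arrays above it (37.6% over all tested probe sets) and 4 below it (26.3%), and against saline 48 alone 3 were above (27.7%) and 4 below (26.4%). With saline 48 as the control of IL-13 6 only Gsto1 was left. At 48 the count was 1 of 13, Gstm5 100631_r_at at the 2-fold limit and lower, with 2.33% lower and 3.96% in either direction over all tested probe sets. No member on IL-13 18 was 2-fold from both saline arrays, with 2.06% over all. In all, 10 of 13 members stayed within 2-fold over the 5 arrays, as did 80.6% of all tested probe sets. There is no test of 1 array against 1.

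**Figure D4:**
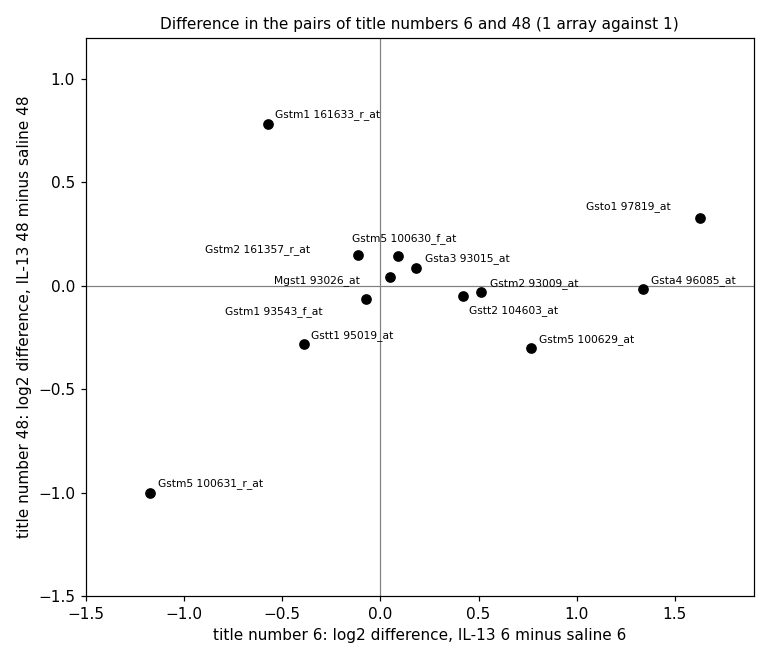
Log2 difference, IL-13 minus saline, in the pair of title number 6 (horizontal axis) and of 48 (vertical axis) for the 13 tested members, with 1 array against 1 and no error. Gsto1 is at 1.63 and 0.33, Gsta4 at 1.34 and -0.02, and Gstm5 100631_r_at at -1.17 and -1.0.

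The other glutathione transferases on the array gave a similar picture. Of 22 genes listed, 11 had a probe set with 1 symbol and 9 were tested, of which 6 had a higher and 3 a lower mean with IL-13 and none passed. Without saline 6 the counts were 3 higher and 6 lower. Mgst3, a membrane-bound family member with peroxidase activity, was the only tested one without overlap, at 3516 and 4038 on the saline pair against 5737, 4452 and 4567 after IL-13 (log2 difference 0.37, SE 0.19). Over all tested probe sets, 14.8% had their IL-13 arrays above both saline arrays and 11% below. Mgst2, which can make the leukotriene that carries glutathione, read 401 on saline 6, 1653 on saline 48 and 872, 879 and 1439 with IL-13. That gap between the saline arrays, 4.12-fold, exceeded any among the members. The alpha-class Gsta2 (693, 1242, 932, 1149 and 1486 in the order saline 6, saline 48, IL-13 6, 18 and 48), the kappa-class Gstk1 (752, 1409, 995, 1074 and 1109) and the prostaglandin E synthase gene Ptges (337, 622, 556, 671 and 560.1) were lowest on saline 6 as well. Gstp1, the pi-class enzyme of airway epithelium, read 8163 and 9136 on the saline pair against 9645, 8049.7 and 10486 after IL-13. Gstz1, the zeta-class enzyme of tyrosine breakdown, and Ltc4s, the leukotriene C synthase of mast cells and eosinophils, were highest on saline 6, with log2 differences of -0.24 (SE 0.20) and -0.14 (SE 0.26). The _f_at probe set of Gstm3 differed by -0.08 (SE 0.17), and its second probe set had the opposite sign. Gstm6 (57.5 and 92.1 with saline, 146, 113 and 118 with IL-13) was too dim to be tested, and Gsta1 was below the floor on all 5 arrays.

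Glutathione synthesis and use showed no shared direction. Of 29 genes, 23 were on the array and 17 tested, with 9 higher, 8 lower, a median log2 difference of 0.01 and none passing. Without saline 6 there were 6 higher and 11 lower. Gpx2, an epithelial glutathione peroxidase, had the largest difference, at 1772 and 3748 on the saline pair against 4112, 4724 and 4539 after IL-13 (0.79, SE 0.32, limma adjusted p = 0.529). Gpx1, the general cytosolic peroxidase, differed by 0.36 (SE 0.19) and Ggct, which breaks down gamma-glutamyl peptides, by 0.40 (SE 0.20), both, like Gpx2, without overlap. Gpx4, the peroxidase of membrane lipids, was lower without overlap, at 3361 and 3000.4 on the saline pair against 1979, 2226 and 2787 after IL-13 (-0.46, SE 0.21).

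Genes of the antioxidant response and of related drug metabolism were split evenly, with 15 of 30 tested higher and 15 lower, a median of 0.02 and none passing. Without saline 6 the count was 14 higher and 16 lower. Cbr3, a carbonyl reductase, read 251 and 563 on the saline pair against 864, 713 and 688 after IL-13 (1.00, SE 0.35, limma adjusted p = 0.503). Nqo1, a quinone reductase and a standard Nfe2l2 target, read 164 and 703 on the saline pair against 522, 533 and 824 after IL-13 on its brightest probe set, so saline 6 alone was low. Cyp1b1, a cytochrome of aromatic hydrocarbon metabolism, was lower without overlap (-0.63, SE 0.18, limma adjusted p = 0.412). Catalase, Cat, was 3143 on saline 6 and 1304 to 1752 elsewhere on its brightest probe set (-0.67, SE 0.29), and its other probe set had the opposite sign. Saline 6 was the lowest array for 8 of 17 tested genes of glutathione synthesis and use (47.1%). For the antioxidant response it was lowest for 14 of 30 (46.7%). The 32.1% given above is over every tested probe set, whereas the lists count 1 probe set per gene, the brightest.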

How the data were processed

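The authors deposited 1 intensity per probe set and array on a linear scale. What software, background correction and scaling target produced them was not given in the sources used here. These intensities were already scaled per array, as their 2% trimmed means lay between 800.39 and 800.47. After 66 control probe sets were left out, 12422 remained (10833 with 1 symbol, 396 with several, 1193 with none), and 10817 of those with 1 symbol were matched to RefSeq by gene number. Each array was rescaled to 1 trimmed mean, the 20th percentile of all values (55.3) served as the floor, and intensities were put on the log2 scale. Probe sets exceeding the 40th percentile (210.2) on 2 or more arrays, 7811 in number, entered a linear model of treatment alone (limma 3.58.1, R 4.3.3, lmFit and eBayes), which left 3 residual and 3.46 prior degrees of freedom. Tests were two-sided, and Benjamini-Hochberg adjustment ran over all 7811. Intervals use the moderated SE. The fit was tested on simulated data. Arrays were grouped by title, and the number of arrays limits the precision. Detection calls were not analysed here.

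Every member probe set is named, with every other glutathione transferase, up to 4 genes of each further list by size of difference, up to 3 of each of 12 marker lists by brightness, and 5 genes of closest profile. Further marker genes were named after their values were seen. For lists, the brightest probe set stands for a gene. Members and lists were chosen with earlier results of these data known. Alternatives covered scaling, floor, filter, eBayes settings, title number as a block, the control array and each array left out. Figures were drawn with matplotlib 3.10.9.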

Additional observations from a re-analysis of the deposited data

Results flagged for a closer look

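For 6 tested member probe sets the pairs of title numbers 6 and 48 differed in opposite directions between IL-13 and saline, with 1 array against 1, so the difference was not tested. The log2 difference at 48 minus that at 6 was -1.36 for Gsta4 (1.34 at 6, -0.02 at 48), -1.07 for Gstm5 100629_at (0.77 and -0.30), -0.54 for Gstm2 93009_at (0.51 and -0.03) and -0.47 for Gstt2 (0.42 and -0.05). In these 4 saline 6 read lowest of the 5 arrays. For Gstm1 161633_r_at it was 1.36 (-0.57 and 0.78) and for Gstm2 161357_r_at 0.26 (-0.12 and 0.15). What part the saline 6 array had in these values was not tested.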

How the results depend on the processing

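No member was called under any alternative run (the lowest adjusted p was 0.149, for Gsta4 without saline 48). Of 168 recomputed member differences, 156 kept their direction and 12 changed sign. Of those, 11 came from leaving out 1 array, in 9 probe sets, 7 of them without saline 6. The other was Gsta3 with quantile normalization (-0.0095). Leaving out 1 array gave -0.29 to 0.37 for Gsta3, -0.053 to 1.15 for Gsta4, -0.042 to 0.62 for Gstm1 161633_r_at, -0.10 to 0.0074 for Gstm1 93543_f_at and -0.24 to 0.38 for Gstm2 161357_r_at. It gave -0.057 to 0.48 for Gstm2 93009_at, -0.26 to 0.64 for Gstm5 100629_at, -0.13 to 0.33 for Gstt2 and -0.14 to 0.22 for Mgst1. With no change of sign it gave -1.15 to -0.22 for Gstm5 100631_r_at, where the replicate block gave -1.09. The cause was not tested. The members' median then ranged from -0.057 to 0.22, and with title number as a replicate block over 4 arrays it was 0.12. An arm left with 1 array is assumed to vary like the other. The calls over all probe sets, 4 in the reported fit, were 0 with either other floor, with no filter, with trend and robust settings and with the replicate block, 1 with the filter at the 60th percentile, and 0 to 13 leaving out 1 array (13 without saline 48, 1 without saline 6). Members at least 2-fold apart at 6, 3 in the report, were 1 at 3-fold and 1 with the other saline array. At 48, 1 in the report, they were 0 with the floor at the 40th percentile, 2 at 1.5-fold, 0 at 3-fold and 2 with the other saline array. Against 1 saline array alone, chosen after seeing the data, 3 to 7 members had all IL-13 arrays above saline (3 against saline 48, 7 against saline 6; shares over all probe sets 27.7% and 37.6%) and 4 in each case below (26.4% and 26.3%), where both saline arrays gave 1 and 1.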
